A study of Mus musculus with 16 samples.

Results

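Arterial endothelial cells of the mouse lung were chosen by their own transcripts, that is, selected on the UMI counts of 8 genes. A cell was a member when at least 1 UMI (unique molecular identifier, the tag by which copies of 1 captured transcript are counted once) was detected for at least 2 of the 4 arterial genes Bmx, Gja5, Mgp and Eln, and when fewer than 2 of the 4 venous genes Slc6a2, Car8, Bst1 and Cpe were detected. The rule found 273 of 9036 deposited cells. After a filter on cell quality and on markers of other cell types, 270 of 8969 kept cells were members, and the other 8699 kept cells served for comparison. By day the members numbered 86 (d0), 42 (d15), 102 (d22) and 40 (d36).

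The cells came from female C57BL/6N mice and were sorted by flow cytometry as lung endothelium before 10x Genomics 3′ version 2 libraries were made. The d0 mice were wild-type. The other groups carried subcutaneous grafts of Lewis lung carcinoma (a line derived from a mouse lung tumour) and were sampled with the primary tumour in place (d15), after its resection (d22) and with metastases (d36). The labels list 4 libraries for each day, but the table ties a cell to its day only, so each day was 1 pooled sample and no test between days was possible. The number of mice behind a day is not given in the sources used here. Day, resection, tumour burden and any difference in library preparation between days cannot be told apart.

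Arteries carry blood at high pressure, and the endothelium that lines them keeps an identity set by VEGF, Notch and SoxF signalling. Its cells make connexins for coupling along the vessel, ligands such as the ephrin Efnb2, and parts of the elastic layer on which they sit. In the lung, large elastic pulmonary arteries branch into small arterioles that feed a dense capillary bed, and transcripts grade along that path. The 4 gate genes mark different stretches of it. Bmx encodes a tyrosine kinase and Gja5 a connexin of arterial endothelium, whereas Mgp, a calcification inhibitor, and Eln, elastin, are matrix genes that smooth muscle cells and fibroblasts also make.

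Some members had few endothelial transcripts or carried fibroblast markers. Of the 270 members, 30 (11.1%) had at least 2 of 8 fibroblast markers detected, or drew under 0.5% of their UMIs from 8 pan-endothelial genes. They are called fibroblast-marked cells here, although 10 of them met only the second condition. They numbered 11, 2, 9 and 8 from d0 to d36, and 25 of the 30 had entered the gate through Mgp and Eln alone. The pan-endothelial genes gave a median of 0.173% of UMIs in the marked cells, 1.40% in the other 240 members and 1.55% in the cells outside the gate.

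As a group the marked cells, which were picked in part by fibroblast and endothelial genes, also had high levels of stromal genes outside the marker list. Their summed level of Inmt, a methyltransferase of lung stroma, was 8544 CPM (UMIs of the gene per 1000000 UMIs of the cells summed) against 10.9 CPM in the other 240 members. Gsn, an actin-severing protein, stood at 29573 against 49.7 CPM, and Mfap4, a microfibril protein, at 7930 against 5.02 CPM. Tcf21, a transcription factor of lung fibroblasts and 1 of the 8 markers, was at 802 CPM in the marked cells and had no UMI in the other members. Cldn5, an endothelial tight junction protein of the pan-endothelial list, went the other way, with 618 against 4779 CPM. The gate gene Bmx had no UMI in the marked cells, which was given in advance for the 25 with Mgp and Eln alone. Outside the gate, 12 kept cells (0.138%) had 2 or more fibroblast markers. Results below that rest on these 30 cells are given with and without them, and in the reading without them 189 cells outside the gate that met the same condition were left out as well.

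**Figure D1:**
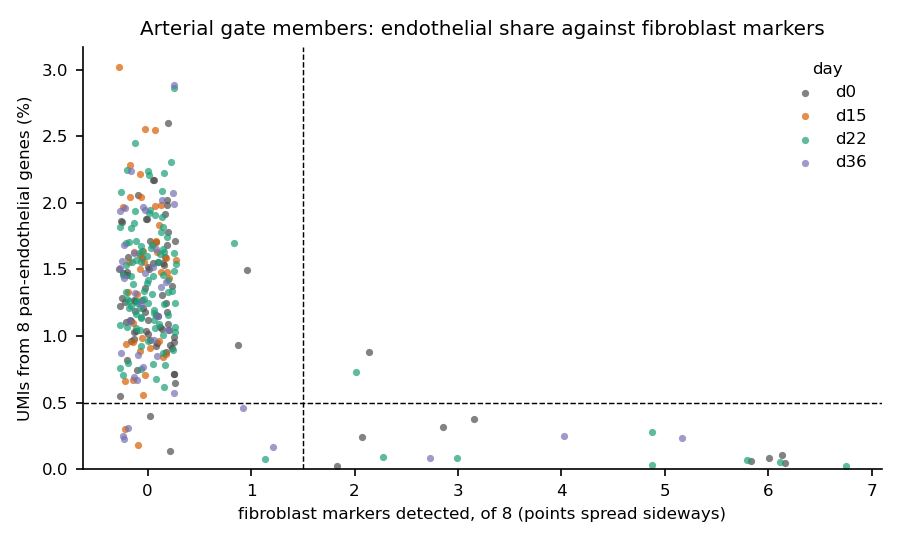
Each point is 1 of the 270 members, with the number of fibroblast markers detected (of 8) across and the percentage of its UMIs from 8 pan-endothelial genes upwards, coloured by day; dashed lines show the limits of 2 markers and 0.5%. Most members had 0 markers and 1% to 2% endothelial UMIs. The cells with 2 or more markers, none from d15, lay below 0.5% except for cells at 0.879% (d0) and 0.729% (d22).

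Depth followed the day. The median UMI count of members was 9231 (d0), 4680 (d15), 9696 (d22) and 5522 (d36), against 7619, 4132, 7606 and 3373 in the other cells. The counts themselves piled up at 4. A value of 4 made up 47.9% of the positive entries of the table and a value of 1 made up 11.9%. Intervals that take each count as 1 molecule would therefore be too narrow, and the 95% intervals below treat 4 deposited counts as 1 molecule. They cover counting error only, not the spread between cells, animals or libraries. Why the counts pile up was not tested. Of the 9000 barcodes, 36 occurred at 2 days, and 1 member carried such a barcode.

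Smooth muscle and leukocyte transcripts were scarce in the gate. The mural cell list, with 10 genes in the table, summed to between 28.9 and 68.2 CPM in members and to between 29.0 and 45.1 CPM in other cells. The pan-leukocyte list was at 0 in members at d0 and d36, and reached 21.6 CPM at d15 from 1 gene of 5. The mesothelial and B cell lists were at 0 in members on every day. The fibroblast list summed to 412, 0, 304 and 405 CPM from d0 to d36 in all members, and to at most 2.60 CPM in the 240.

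The share of cells in the gate was similar on the 4 days when each cell was read at its own depth. At d0 it was 3.23% (Clopper-Pearson 95% interval 2.59 to 3.98) and at d15 2.81% (2.03 to 3.78). At d22 it was 3.17% (2.59 to 3.84), and the d36 share was 2.50% (1.79 to 3.39). The 4 intervals overlapped. Without fibroblast-marked cells the shares were 2.89%, 2.74%, 2.94% and 2.08%. Deeper cells pass the gate more easily, so the gate was also read on cells thinned to 1500 UMIs, which left out 83 cells at d15, 131 at d36 and none at the deep days. The d0 share was then 1.24% (0.856 to 1.74) and the d15 share 2.26% (1.55 to 3.18). For d22 it was 1.37% (0.996 to 1.83), and for d36 1.43% (0.888 to 2.18). At equal depth d15 had the highest share, and its interval still overlapped those of the other days. Equal depth here and below means equal deposited counts. The draw did not treat 4 counts as 1 molecule, so the thinned cells need not be equal in molecules.

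**Figure D2:**
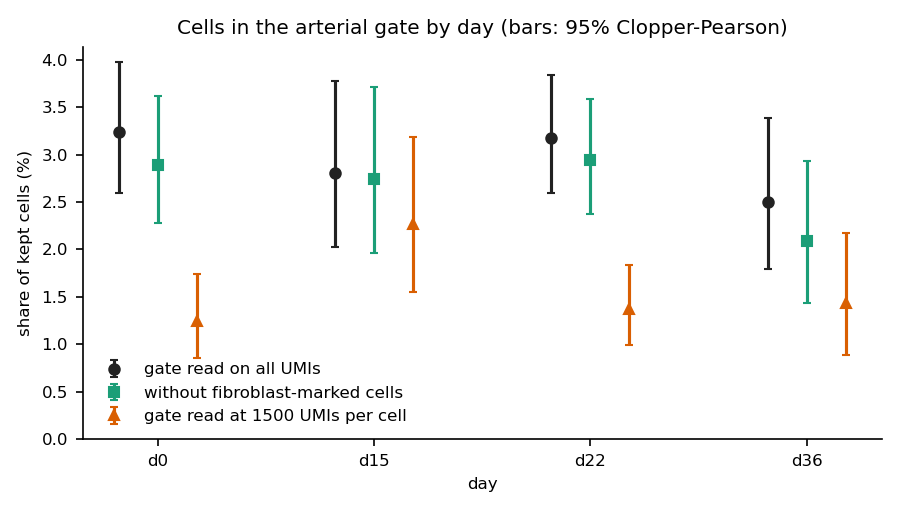
The share of kept cells in the arterial gate (%) is plotted by day with 95% Clopper-Pearson intervals, for the gate read on all UMIs, without fibroblast-marked cells, and at 1500 UMIs per cell. The first reading runs from 2.50% to 3.23%, and the reading at equal depth is highest at d15 with 2.26%.

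Most members sat just inside the gate. Among kept cells with fewer than 2 venous genes, 6825 had none of the 4 arterial genes, 1560 had 1, 219 had 2, 43 had 3 and 8 had all 4. The commonest pattern was Mgp with Eln (113 members), followed by Bmx with Gja5 (28), Bmx with Mgp (26) and Gja5 with Mgp (24). Another 59 kept cells had at least 2 arterial and at least 2 venous genes and were excluded by the rule. Cells just outside the gate, with 1 arterial gene, had a median of 7188 UMIs, and those just inside, with 2, had 8191.

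Against all other cells, the members differed in 2 blocks of genes. A matrix and arterial identity block was higher, and a block of aerocyte genes (aerocytes are wide capillary cells) was lower. These contrasts describe the gate, which was set on the same counts, and they have no test. A gene counted as higher when its CPM ratio to the other cells was at least 1.5 on each of the 4 days, and as lower when it was at most 1/1.5 on each, among genes with at least 200 UMIs and at least 50 CPM. Of 3788 measured genes outside the gate, 133 (3.51%) were higher and 91 (2.4%) were lower. Without fibroblast-marked cells 3766 genes were measured, of which 112 (2.97%) were higher and 68 (1.81%) lower, and 93 higher and 60 lower genes were common to both readings. The median mean log2 ratio (over days, with 1 CPM added) of all measured genes was -0.11, and -0.09 without the marked cells.

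Htra1, a secreted serine protease, had the highest ratio of all. Its level in members was 93.5 CPM (d0), 323 (d15), 113 (d22) and 149 (d36), against 2.76, 4.02, 4.59 and 1.99 CPM in other cells. The ratio lay between 24.7 and 80.5, and the UMIs came from 9, 10, 20 and 6 members. Gkn3, a gastrokine known from arterial endothelium, stood at 43.9, 134, 39.6 and 112 CPM against 1.49 to 3.07 CPM elsewhere, but its UMIs came from 3, 6, 4 and 2 members. Cytl1, a secreted cytokine-like protein, was more abundant, with 879.8, 1651, 557 and 775 CPM against 93.4, 84.9, 74.2 and 24.1 CPM. Leaving out the fibroblast-marked cells moved the mean log2 ratios of Htra1 from 5.17 to 5.24, of Gkn3 from 4.40 to 4.41 and of Cytl1 from 3.83 to 3.91.

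The 20 genes with the highest mean ratios depended on the fibroblast-marked cells to different degrees. Without those cells, 10 of the 20 still met the size rule: Htra1, Gsn, Gkn3, Sfrp1, Rcn3, Fads3, Fbln2, Apoe, Rbp7 and Cytl1. Gsn was among them with a mean log2 ratio that went from 5.07 to 1.73. Cxcl14, a chemokine of fibroblasts, lost the rule and went from 4.79 to 0.02, and Rarres2 and Sod3 lost it too. Cmklr1, Efemp1, Fblim1, Fbn1, Fn1 and Serping1 kept a ratio above 1.5 on each day but no longer reached the minimum level for being measured, and Spon1 had no UMI at d36. For Fblim1, a filamin-binding protein, the mean log2 ratio was still 4.06. Among the highest 20 without the marked cells were also Kcnn4, a calcium-activated potassium channel, with 3.98, Cdh13, an anchored cadherin, with 3.86, and Ctsh, a lysosomal protease, with 3.64. Kcnn4 had UMIs in 5, 7, 10 and 1 members on the 4 days.

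Genes of the elastic layer were well represented among the higher genes. Of 13 measured members of the elastic fibre and vessel matrix list, 7 were higher and none was lower, with a median mean log2 ratio of 3.21. Without fibroblast-marked cells 8 were measured, 5 were higher, and the median was 1.90. Fbln5, which tethers elastin to cells, was at 333, 569, 449.5 and 273 CPM against 58.1, 49.5, 49.0 and 19.5 CPM in other cells. Ltbp4, which anchors latent TGF-beta and assembles elastic fibres, was at 368, 621, 339 and 289 CPM against 32.4 to 55.2 CPM. Fbln2, another fibulin, was at 139.7, 172, 94.4 and 104 CPM against 2.15 to 17.5 CPM. For these fibulins and Ltbp4 the value in members exceeded that in other cells on every day, with and without marked cells. Mfap4 of the same list did not, since its 871, 0, 1038 and 879 CPM in members dropped to 10.4, 0, 3.03 and 0 CPM in the 240.

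Classical arterial identity genes were split. Of 24 measured genes of that list, 11 were higher, 1 was lower and 12 were neither, with a median mean log2 ratio of 0.62, and the counts were the same without marked cells, with a median of 0.74. Beside Htra1, Gkn3, Cytl1 and Fbln5, the higher genes were Plac8, Mecom, Pcsk5, Cxcl12, Edn1, Tm4sf1 and Gja4. Plac8 was at 985, 1091, 1185 and 1196 CPM against 151 to 195 CPM in other cells, a ratio of 5.25 to 7.93. Cxcl12, a chemokine that arterial cells present, was at 687, 1138, 1115 and 911 CPM against 285 to 386 CPM. Gja4, the connexin that works beside the gate gene Gja5, was at 779, 1263, 1089.7 and 642 CPM, 1.73 to 2.25 times its level elsewhere. The vasoconstrictor gene Edn1 was at 231, 719.9, 332 and 529.8 CPM against 152, 192, 181 and 215 CPM.

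The signalling genes that specify arteries in development differed less. Efnb2, the arterial ephrin ligand, was at 141, 263, 192 and 88.3 CPM in members and at 73.3, 129, 77.6 and 131 CPM in other cells, so that it was above them on 3 days and below them at d36. Hey1, a Notch target, had ratios of 1.12 to 1.57, and Dll4, a Notch ligand, of 1.24 to 1.93. Sox17, a SoxF factor, was at 389, 362, 313 and 313 CPM against 359, 496, 398 and 496 CPM and had a mean log2 ratio of -0.34. None of the 9 measured Notch pathway genes met the size rule, and their median was -0.06. The lower gene of the identity list was Tspan8, a tetraspanin, with ratios of 0.281 to 0.555.

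Plat, Vwf, Vcam1 and Jam2 were the higher genes of the coagulation and leukocyte adhesion lists, whose other members were not. Plat, which encodes tissue plasminogen activator, was at 501, 1354, 538 and 755 CPM against 76.0, 123, 69.5 and 111 CPM. Vwf, the clotting multimer of endothelial granules, was at 489.6, 892, 476 and 522 CPM, 3.25 to 4.09 times the other cells. Vcam1, a ligand for leukocyte integrins, was at 297, 345, 427 and 498 CPM against 98.3, 52.8, 64.0 and 41.9 CPM. Jam2, a junctional adhesion molecule, had ratios of 2.08 to 2.77, and Cd34, a sialomucin of capillary endothelium, of 0.424 to 0.526. In the leukocyte adhesion list these were the only genes past the rule, 2 higher and 1 lower of 7, and in the coagulation list Plat and Vwf were the 2 higher genes of 7, with 1 lower. The median mean log2 ratios were -0.17 and -0.07. Without marked cells the coagulation list had 3 higher and none lower of 8, the third being Procr, the protein C receptor. Vwf and Vcam1 also stand in the venous list, of whose 4 measured genes they were the 2 that were higher. Bmp4, a growth factor, was at 142, 431, 251 and 253 CPM against 69.3 to 87.0 CPM and was the higher gene of the BMP and TGF-beta list.

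**Figure D3:**
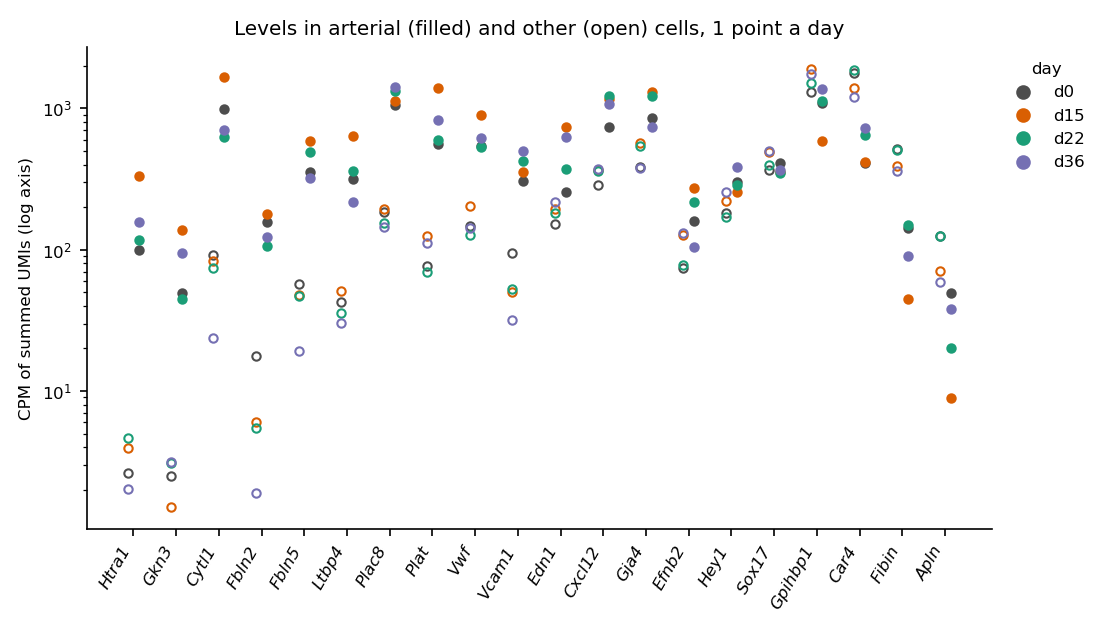
CPM on a log axis for 20 genes in the 240 members without fibroblast marks (filled) and in other cells (open), 1 point a day. Matrix and haemostasis genes from Htra1 to Vcam1 show filled points above all open points, Sox17 overlaps, and the capillary genes Car4, Fibin and Apln lie lower in members.

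Among capillary genes, those of aerocytes were low. Of 10 measured genes of the aerocyte list, the wide capillary cells of gas exchange, 7 were lower and none was higher, with a median mean log2 ratio of -1.70, or -1.58 without marked cells. Car4, a membrane carbonic anhydrase, was at 386, 401, 579 and 626 CPM against 1744, 1369.9, 1852 and 1179.6 CPM. Fibin was at 135, 43.1, 146 and 80.3 CPM against 353 to 508 CPM, and Apln, the apelin ligand, at 45, 8.62, 18 and 32.1 CPM against 57.8 to 124 CPM. Tbx2, a transcription factor, had no UMI in members at d15. In the general capillary list none of 10 genes met the rule in either direction, and the median was -0.59. Without marked cells the summed list was at 6699, 4857, 6888 and 5910 CPM in members from d0 to d36. In other cells it was at 6477, 7954, 6738 and 7224 CPM. Gpihbp1 of that list, which anchors lipoprotein lipase, was at 995, 569, 1008 and 1160.0 CPM against 1298, 1887, 1504 and 1741 CPM, and Plvap, the fenestral diaphragm protein, had a mean log2 ratio of 0.02. Ccl21a, a chemokine of lymphatic endothelium, had the lowest mean log2 ratio of all, -4.68, while Lyve1, a receptor of the same list, was higher in members with ratios of 1.51 to 2.25.

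All 6 measured MHC class II genes had a mean log2 ratio below 0, with a median of -1.43. Most genes did, since 1492 of all 3788 measured genes were above 0. Only H2-Aa of the 6 met the size rule as lower, at 242, 56.0, 375 and 136 CPM against 378, 227, 726 and 275 CPM. Of 14 early response genes, 12 had a mean log2 ratio above 0, against that share of all genes. Fos, an AP-1 subunit, and Dusp1, a phosphatase, were higher. Without marked cells neither met the rule, as Fos had a ratio of 1.49 at d36 and Dusp1 of 1.48 at d0, while Nr4a1 met it as the 1 higher gene of the list. Of 8 pan-endothelial genes Kdr, the main VEGF receptor, was lower, with ratios of 0.457 to 0.556, and the others met the rule in neither direction.

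Levels of these genes followed the number of gate genes a cell had. The comparison uses cells without fibroblast marks, summed over the 4 days: 6697 cells with none, 1518 with 1, 192 members with 2, and 48 members with 3 or 4. Cytl1 stood at 10.9, 37.3, 414 and 2461 CPM in that order. Htra1 stood at 0.891, 5.92, 84.4 and 321 CPM, Fbln5 at 15, 45.5, 239.6 and 1129 CPM, and Plat at 74.0, 117, 466 and 1479 CPM. Cells with a single gate gene were much nearer to the cells with none than to the members. Gpihbp1 went from 1539.6 and 1597 to 1322 and then 251 CPM, and H2-Ab1, an MHC class II chain, from 675 and 746 to 504 and then 41.2 CPM. Aplnr, Kit and Sema3c of the general capillary list were at 179, 126 and 916 CPM in cells with no gate gene. In members with 3 or 4 they were at 10.3, 12.4 and 150 CPM, whereas Plvap of that list was at 2734 and 2698 CPM in these 2 classes. Other capillary genes were already low in the members with 2 gate genes: Car4 stood at 1902, 1376, 670.2 and 122 CPM, and Fibin at 539, 372, 168 and 2.06 CPM. Sox17 stood at 412, 436, 379.6 and 352 CPM and moved little. Other arterial and Notch genes were mixed. Efnb2 rose through 89.0, 96.6, 163 and 290 CPM, and Dll4 through 165, 174, 226 and 299 CPM. Hey1 was highest in the members with 2 gate genes, at 327 CPM, and Hes1 fell from 298 CPM with none to 224 CPM with 3 or 4.

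**Figure D4:**
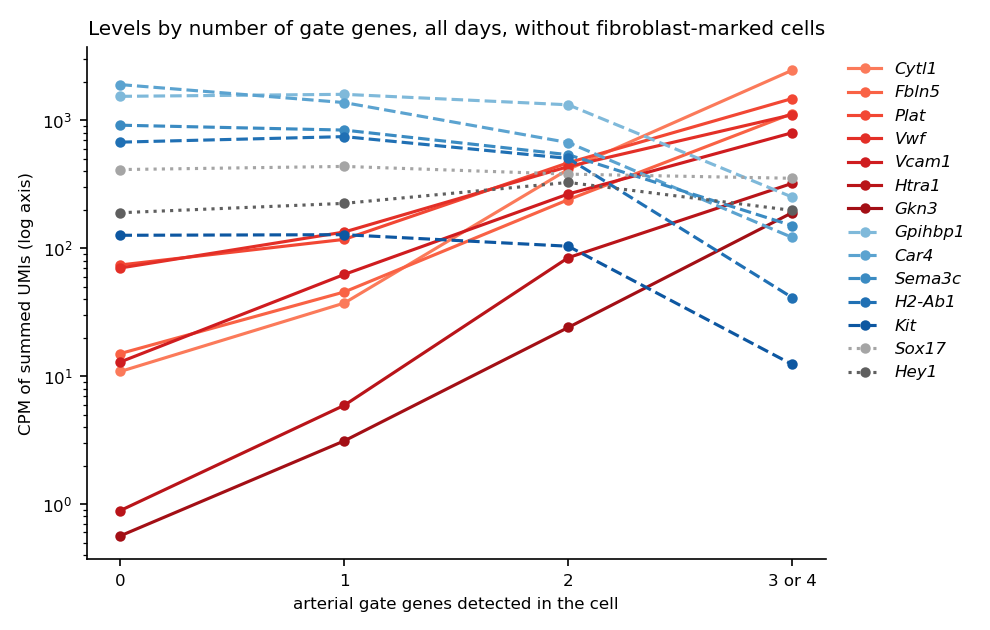
CPM on a log axis in cells with 0, 1, 2 and 3 or 4 of the arterial gate genes, all days together, without fibroblast-marked cells; solid lines are genes high in members, dashed lines capillary and MHC class II genes, dotted lines Sox17 and Hey1. Solid lines climb at each step, and each dashed line is lowest at 3 or 4 genes.

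The gate gene that let a cell in went with its other transcripts. Among the 240 members without fibroblast marks, 28 had Bmx and Gja5 without Mgp or Eln, 124 had Bmx or Gja5 together with Mgp or Eln, and 88 had Mgp and Eln alone. Esm1, a proteoglycan of tip cells and growing vessels, was at 946 CPM in the 28 cells (14 of them with UMIs), at 72.1 CPM in the 124 and at 12.8 CPM in the 88. Cxcl12 followed the same order with 2119, 1246 and 382 CPM, as did Dll4 with 453, 276 and 126 CPM and Hey1 with 518, 305 and 219 CPM. Cytl1, Htra1 and Sfrp1 had another order. Cytl1 was at 16.2 CPM in the 28 cells, 1308 in the 124 and 479 in the 88, and Htra1 at 0, 215 and 62.8 CPM. Sfrp1, a Wnt antagonist, was at 0, 117 and 35.9 CPM. The Dll4, Hey1 and Cxcl12 levels were thus highest where Bmx and Gja5 came without matrix genes, and the Cytl1 group was highest where both kinds were present.

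The 88 cells with Mgp and Eln alone had the lowest levels of several arterial identity genes among the 3 classes. Plac8 was at 301 CPM against 1822 in the 124 and 1274 in the 28, Efnb2 at 79.4 against 257 and 235 CPM, and Gja4 at 661 against 1303 and 1148 CPM. Their Car4 was 1102 CPM against 264 and 142 CPM. Mgp was the only gate gene in 589 kept cells outside the gate and Eln in 733, against 107 for Bmx and 89 for Gja5. Free RNA in droplets can give single UMIs of abundant genes to cells that do not make them, and its part in the Mgp and Eln class was not tested. This class made up 33 of 75 members at d0, 15 of 40 at d15, 29 of 93 at d22 and 11 of 32 at d36.

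The excluded cells with at least 2 arterial and 2 venous genes, 54 without fibroblast marks, shared part of the pattern. Cytl1 was at 3282 CPM and Vwf at 1449.9 CPM in them, both above the members with 3 or 4 gate genes. Prss23, a serine protease of the venous list, was at 2384 CPM in them against 45.3 CPM in those members, whereas Gja4 was lower at 397 CPM. Their median of 12746.5 UMIs was the highest of these classes, and whether they are doublets was not tested.

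Between days, arterial cells are few and each day is 1 pooled sample, so the folds below compare pools. Genes entered when 1 of the 2 pools reached 50 CPM and both together held 100 UMIs. The size rule then asked for a fold of 1.5 up or down whose counting interval, on deposited counts, left out 1. At d15 against d0, 281 of 2076 genes (13.5%) were higher and 335 (16.1%) lower. At d22 against d0 the counts were 281 (8.3%) and 336 (9.93%) of 3385. At d36 against d0 they were 251 (11.9%) and 329 (15.7%) of 2101, and at d36 against d15, the days of like depth, 96 (11.2%) and 106 (12.4%) of 856. Without marked cells the percentages were 13.1% and 15.9% at d15, 8.03% and 9.72% at d22, and 12.5% and 15.1% at d36. With 4 counts taken as 1 molecule, 268, 196, 200 and 88 genes met the rule in these comparisons, where the main totals were 616, 617, 580 and 202. The same rule in the far more numerous other cells called 157 higher and 83 lower genes at d15, 10 and 59 at d22, and 150 and 126 at d36. The d0 pool is shared by 3 of the comparisons, which are therefore not independent.

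At d15 the members had more of several transcripts of secreted proteins than at d0. Edn1 was at 719.9 CPM against 231 at d0, a ratio of 3.12 (95% interval 2.02 to 4.80), with UMIs in 17 of 42 and 28 of 86 cells. In other cells its ratio was 1.27. Cyr61, a matricellular protein induced by mechanical stretch, was at 1673 against 578 CPM, a ratio of 2.89 (2.19 to 3.80), against 0.913 in other cells. Plat had a ratio of 2.70 (1.99 to 3.64) against 1.62, and Bmp4 of 3.04 (1.72 to 5.32) against 1.03. Htra1 had a ratio of 3.46 (1.74 to 6.82). Each of these genes was also higher in members with 3 or 4 gate genes than in those with 2, as Edn1 at 655 against 320 CPM. Without fibroblast marks, members with 3 or 4 were 13 of 75 at d0 and 11 of 40 at d15. Their part in these differences was not tested. Klf2, a flow-induced transcription factor, was higher in both, with a ratio of 1.63 (1.40 to 1.88) in members and 1.55 elsewhere.

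Since depth differed between days, the d15 values were read again on cells that passed the gate at 1500 UMIs, without fibroblast marks: 24, 31, 39 and 14 cells from d0 to d36. There Edn1 was at 175 CPM at d0 and 981 at d15, Cyr61 at 562 and 1827, Bmp4 at 152 and 515, and Htra1 at 179.7 and 515 CPM. Plat and Klf2 are not given at this depth, and each of the 4 genes given was again higher at d15 at equal gating depth. Cytl1 was not: in all members it was at 1651 CPM at d15 against 879.8 at d0, without marked cells at 1671 against 987 CPM, and in the equal-depth cells, also without marks, at 2770.4 against 3166 CPM. Fbln5 had a ratio of 1.71 (1.10 to 2.62) in all members. Without marks Fbln5 was at 588 against 354 CPM in members, and at 858 against 843 CPM in the equal-depth cells. Vwf had 1.82 (1.28 to 2.56) in all members, and without marks it was at 905 against 542 CPM in members and at 1146 against 981 CPM in the equal-depth cells. In all, 12 of 21 measured arterial identity genes were higher at d15 and none was lower, where 13.5% and 16.1% of all measured genes were. The list's median log2 ratio was 0.70, against 0.24 for the same genes in other cells and -0.05 for all genes measured in members. Without marked cells 11 were higher and 1 lower, with a median of 0.60. The list was not counted on the equal-depth cells.

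**Figure D5:**
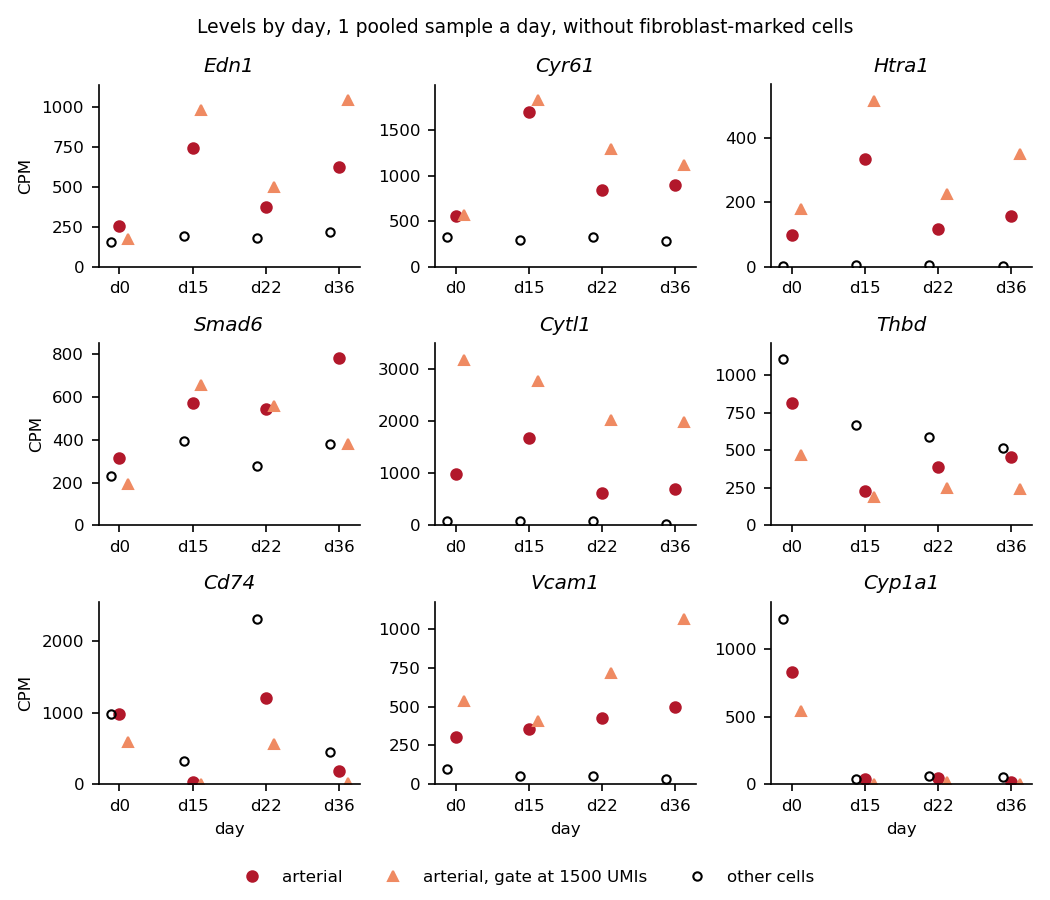
CPM by day, 1 pooled sample a day, in arterial members without fibroblast marks (filled circles), in cells that pass the gate at 1500 UMIs (triangles) and in other cells (open circles), for 9 genes. Edn1, Cyr61 and Htra1 were highest at d15 in members, Cytl1 was highest at d0 in the cells gated at 1500 UMIs, Thbd and Cyp1a1 were highest at d0, and Vcam1 was highest at d36 in members while lowest there in other cells.

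Part of the BMP and TGF-beta list was higher on the later days than at d0. Of 12 measured genes of the list, 6 were higher at d15 and 4 at d22. Of 11 measured at d36, 7 were higher, and none was lower on any of those days. Among all measured genes 13.5%, 8.3% and 11.9% were higher on those days, and 16.1%, 9.93% and 15.7% lower. Smad6, an inhibitor that BMP signals induce, was at 279, 569, 482 and 658 CPM in members and at 226, 391, 274 and 375 CPM in other cells. Its ratio to d0 was 2.04 (1.29 to 3.16) at d15, 1.72 (1.26 to 2.38) at d22 and 2.36 (1.54 to 3.56) at d36. Id3, a target of the pathway, had a ratio of 1.76 (1.46 to 2.1) at d15 and 1.08 (0.949 to 1.24) at d22. The list's median log2 ratio in members was 0.68, 0.25 and 0.71 on these days, where it was 0.28, 0.13 and 0.28 in other cells. Among the cells gated at 1500 UMIs, Smad6 was at 194, 656, 557 and 379.6 CPM, again lowest at d0.

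MHC class II transcripts were close to 0 in members at d15. Cd74, the invariant chain, was at 927 CPM (d0), 34.5 (d15), 1161 (d22) and 149 (d36), and its UMIs came from 37, 1, 55 and 7 cells. In other cells it was at 987, 316, 2314 and 455 CPM, so that the order of the days was the same and the d15 drop was larger in members, with a ratio of 0.0372 (0.00447 to 0.136) against 0.321. H2-Ab1 had a ratio of 0.0930 (0.00884 to 0.376) at d15 against 0.757 in other cells. All 4 measured class II genes were lower at d15, where 16.1% of all measured genes were. In the cells gated at 1500 UMIs, Cd74 was at 585, 0, 555 and 14.1 CPM and H2-Ab1 at 129, 42.9, 298 and 42.2 CPM. Members with 3 or 4 gate genes, in which H2-Ab1 was low, were 13 of 75 at d0 and 11 of 40 at d15, and their part in the drop was not tested. At d22, 2 of 6 measured class II genes were higher, where 8.3% of all measured genes were. H2-Ab1, 1 of these 2, had a ratio of 1.61 (1.20 to 2.17) against 1.84 in other cells. Cd74 at d22 had a ratio of 1.25 (1.05 to 1.5) in members, where the other cells had 2.34.

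Thbd, the thrombin receptor that starts protein C activation, was below its d0 level on every later day. It was at 770.1, 237, 375 and 417 CPM in members, with ratios to d0 of 0.308 (0.164 to 0.534), 0.487 (0.377 to 0.625) and 0.542 (0.344 to 0.823). In other cells the ratios were 0.610, 0.534 and 0.462. Cyp1a1, a target of the aryl hydrocarbon receptor, was at 781, 34.5, 47.6 and 16.1 CPM, with UMIs in 34, 1, 9 and 1 members. Other cells went from 1215 CPM at d0 to 34.7, 57.3 and 52.1 CPM. Both genes thus differed between d0 and the later days in members and in other cells alike.

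At d22 the members' depth was near that of d0. Cxcl12, lowest at d0 in members, was at 1115 against 687 CPM, which is 1.62 times as much (1.33 to 1.99), where other cells had 1.26. Egr1, an early response factor, had a ratio of 1.56 (1.22 to 2.01) against 0.960. Nr4a1, an orphan nuclear receptor of the same list, had 1.95 (1.12 to 3.53) against 0.971, with UMIs in 28 and 12 cells. Cytl1 was lower, with a ratio of 0.634 (0.509 to 0.787), and stood at 2016 against 3166 CPM in cells gated at 1500 UMIs. Hes1, a Notch target, had a ratio of 0.511 (0.355 to 0.730) at d22 and 0.373 (0.163 to 0.750) at d36, against 1.02 and 1.38 in other cells. It was the 1 lower gene of the Notch pathway list on both days. Of that list 0 of 8 measured genes were higher at d22 and 2 of 7 at d36, where 8.3% and 11.9% of all measured genes were. The median log2 ratios were 0.01 and 0.18, against 0.08 and 0.46 for the same genes in other cells. Without marked cells 1 of 6 was higher at d36, and the median was -0.07. At d22, 3 of 22 measured arterial identity genes were higher and 2 lower, near the share of all genes, and that list's median was 0.27.

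At d36 Vwf and Fbln5 were near their d0 levels. Vwf had a ratio to d0 of 1.07 (0.696 to 1.59) and Fbln5 of 0.821 (0.453 to 1.41). Edn1 was still above d0 at 529.8 CPM, a ratio of 2.29 (1.43 to 3.63) against 1.42 in other cells. Ece1, the enzyme that matures endothelin, had a ratio of 1.93 (1.17 to 3.14) against 1.15. These were the 2 higher genes of 9 measured in the vasoactive list, of which 4 were lower (Nostrin, Ptgs1, Npr1 and Npr3). Among all measured genes 11.9% were higher and 15.7% lower at d36. The list's median log2 ratio was -0.41, against 0.04 in other cells. Vcam1 had 1.68 (1.06 to 2.61) in 16 and 27 cells, where the other cells had 0.426. Without marked cells Vcam1 had a ratio of 1.61 (0.977 to 2.60). Gja4 had a ratio to d15 of 0.508 (0.337 to 0.757). Of 16 measured arterial identity genes, 8 were lower than at d15 and none was higher, where 12.4% and 11.2% of all measured genes were. Without marked cells 6 were lower and 1 higher. Tie1, an endothelial receptor, had a ratio of 0.383 (0.157 to 0.856) against d15.

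Several of the largest day ratios came from few cells or from the marked cells. Esm1 had a ratio of 5.96 (2.60 to 14.3) at d15 and 3.32 (1.67 to 7.25) at d22, but its d15 UMIs lay in 4 cells, of which 1 held 39.4% of the UMIs of both days. Fabp4, a fatty acid carrier, was at 574 CPM at d0 from 5 cells, of which 1 held 99.2% of the UMIs of d0 and d36. At d15 the 6 lowest genes, Ces1d, Clec3b, Col3a1, Hsd11b1, Inmt and Mfap4, were at 0 in members, as was the fibroblast list, and Inmt had stood at 903 CPM at d0. Without marked cells the lowest were Igtp, Cd74, Cyp1a1, Atp13a2, Arap2 and H2-Ab1. Mmp3, highest at d22 against d0, had UMIs in 2 members, 78.4% of them in 1 cell, and none in the 240. Against d15, Inmt and Mfap4 at d36 again led among the higher genes through marked cells. Apoe, the lipid carrier, had a ratio of d36 to d15 of 0.848 (0.602 to 1.19) in all members and of 0.277 (0.159 to 0.461) without marked cells.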

How the data were processed

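The authors deposited 1 table of raw UMI counts (28692 genes in 9036 cells) as unscaled values. Cell Ranger 2.1.1 and mm10 are named in the submitters' processing notes. The cell filter and annotation release were not given in the sources used here. The cell names carry the day, and each day was 1 pooled sample. Cells with at least 300 genes, at most 10% mitochondrial UMIs and under 1% of UMIs from any other cell type's markers were kept (67 left out). No doublet caller was run; 1 alternative left out the 5% of cells with most UMIs. UMIs were summed and scaled to CPM with Python 3.11.15, numpy 2.4.6 and scipy 1.17.1; ratios have exact binomial 95% intervals, and shares Clopper-Pearson ones. The size rule was checked on simulated data, not on the deposited counts, which pile up as described above. Its rate of false calls on the deposited counts was therefore not measured. A day at 0 was given a floor of 3 molecules (12 deposited counts).

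The members, the gene lists and the rules were chosen with earlier results of these data known. Named genes were the 20 highest and 10 lowest mean ratios against other cells, the 6 highest and 6 lowest in each day comparison (also without fibroblast-marked cells), the arterial identity genes, the 2 most changed genes of each list and 7 genes on every day (Lrg1, Cd74, Cyp1a1, Esm1, Thbd, Klf2, Vwf). Predicted, ribosomal and mitochondrial genes stayed out. Other genes named were chosen after their values were seen. The rule for fibroblast-marked cells, the naming without them and the division by 4 were added after seeing the data. Settings were compared as given at the end. A result on 1 gene is not reported here.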

Additional observations from a re-analysis of the deposited data

Results flagged for a closer look

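A few genes met the size rule, on deposited counts, between days in opposite directions in arterial and in other cells. Genes lower in members but higher in other cells numbered 3 of 2076 at d15, 1 of 3385 at d22 and 3 of 2101 at d36 against d0. Genes higher in members but lower in other cells numbered 5 at d36. With counts divided by 4 the former numbered 1, 0 and 1, and the latter 1 at d36. The difference between the cell groups was not tested.

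At d15 against d0, Lrg1, a secreted acute-phase glycoprotein of endothelium, had a log2 ratio of -2.61 in members, with 30.2 against 189 CPM from 4 and 14 cells, while other cells had 286 against 133 CPM. At 1500 UMIs per cell for gating, Lrg1 was at 61.3 CPM at d15 and 82.9 CPM at d0. Hmcn1, a large extracellular matrix protein, had -0.93 in members, with 147 against 279 CPM, and 403 against 257 CPM in other cells.

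Fabp4 had log2 ratios to d0 of -0.70 at d15, -2.63 at d22 and -9.17 at d36 in members. Its level was 574 CPM at d0 from 5 cells, of which 1 held most UMIs, and 0 at d36, so the last value depends on the 1 CPM added. Against the floor of 3 molecules at d36, Fabp4 was at least 11.9-fold lower than at d0. In other cells Fabp4 was at 35.5, 191, 54.4 and 115 CPM from d0 to d36.

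At d36 against d0, Snx21, a sorting nexin, had a log2 ratio of -0.79 in members (112 against 195 CPM) with 206 against 132 CPM in other cells. Vcam1 had 0.74 in members, with 498 against 297 CPM, and 41.9 against 98.3 CPM elsewhere. Without marked cells its log2 ratio was 0.69, and the interval given above did not exclude an equal level. Ces2g, a carboxylesterase, had 1.20 in members, with 161 against 69.3 CPM from 7 and 14 cells, and 30.2 against 61.2 CPM elsewhere.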

How the results depend on the processing

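No paired analysis was possible because the cells carry their day but not their library. For the same reason no library could be left out. Settings without fibroblast-marked cells or with counts divided by 4 were chosen after seeing the data. Of the alternative values of the shares and gene counts, 63 stayed close to the reported value and 33 moved, and of those for single genes 1030 stayed, 160 moved and 22 reversed. With at least 3 of the 4 gate genes the shares were 0.564%, 0.735%, 0.560% and 0.438% from d0 to d36, and at 1500 UMIs 1.24% at d0, 1.37% at d22 and 1.43% at d36. Genes higher in members were 46 with a minimum of 200 CPM and 210 with none. Genes lower were 29 and 373 there, 290 with 3 gate genes, 247 at 1500 UMIs, and 52 without marked cells and with counts divided by 4. In the order d15, d22 and d36 against d0, then d36 against d15, genes past the size rule were 145, 164, 161 and 51 with 3 gate genes, 238, 311, 236 and 130 at 1500 UMIs, 268, 196, 200 and 88 with counts divided by 4, and 227, 172, 172 and 68 with that and without marked cells. With a minimum of 200 CPM they were 318, 76 and 288 against d0. The share of higher genes among calls was 32.9% at d36 against d0 and 19.6% at d36 against d15 with 3 gate genes (43.3% and 47.5% as reported), 58.2% at d22 against d0 at 1500 UMIs (45.5%), and 59.1% at d15 against d0 with 200 CPM (45.6%).

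Log2 ratios that reversed with at least 3 gate genes were -0.50 for Gsn and -1.47 for Rarres2 against other cells, -6.32 and -3.83 for Esm1 at d15 and d22, 4.85 for Fabp4, -1.03 for Ifitm1 and -2.65 for Mmp3 at d22, -5.88 for Cbr1 and -7.05 for Nupr1 at d36, and -0.69 for Car2, -3.86 for Gpx3, -3.86 for Pmp22 and -7.35 for Gsn at d36 against d15. Without marked cells, Ifitm1 at d22 was at -0.69 (-0.34 with counts divided by 4), Nupr1 at d36 at -1.20 (-2.48) and Gsn at d36 against d15 at -1.32 (-1.30). With both changes Cxcl14 against other cells was at -0.43. Fabp4 at d22 was at 3.995 without cells poor in Malat1, and Ifitm1 at -2.60 without the cells of most UMIs. Why these values reversed was not tested. With 40 to 102 members a day, genes with under 100 UMIs over the 2 pools could not be compared between days. The CPM level that this needs differs between comparisons, as the pools differ in total UMIs. With no CPM minimum the genes past the size rule were unchanged at 616, 617, 580 and 202. A minimum of 200 CPM also left the 202 at d36 against d15 unchanged.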
